A study of Mus musculus with 16 samples.

Results

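Kruppel-like factors are zinc-finger transcription factors that bind GC-rich and CACCC-containing DNA, and 10 of the mouse genes, Klf2, Klf3, Klf4, Klf5, Klf6, Klf7, Klf9, Klf10, Klf13 and Klf15, were followed across cultured adult mouse neural stem cells. A probe set, the group of short array probes read together as 1 value, was assigned to a member when the platform annotation listed that member's symbol and no other. This gave 27 of 22626 probe sets and 10 of 12393 genes. Where a gene had several, the brightest on average stood for it and the others served as a check. A gene was tested if the mean log2(signal + 16) of its probe set reached 6.07, a signal of 51.1 and the 40th percentile of probe sets, which 9 of the 10 members and 7619 of all genes did. Klf15 did not.

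The study asked which genes depend on Tlx, a nuclear receptor (gene Nr2e1) needed to maintain adult neural stem cells. The labels give 8 groups of 2 arrays, 16 arrays in all. Cultures labelled Tlx(f/Z;CreER), called CreER here, were set against cultures labelled Tlx(f/Z), called no Cre here. Each genotype received 4-hydroxytamoxifen (4OH-TM in the labels, 4OHT here) or vehicle, and RNA was taken at 60 h or 36 h. In CreER an estrogen receptor domain keeps Cre recombinase inactive until 4OHT binds, and f commonly marks an allele that Cre can delete. Both genotypes carried f/Z, and the no Cre cultures received 4OHT without the recombinase. What Z stands for, what drives CreER, the age of the mice and the number of animals behind a culture were not given in the sources used here. The arrays of a group are described as biological replicates, but whether they came from different mice is not stated. The p-values cover no more than the spread between these arrays, pooled over genes of similar signal. Nr2e1 had no probe set under its symbol, so its loss was not checked here.

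Median signal ran from 92.2 to 132.6, and replicate arrays correlated across probe sets at r = 0.991 to 0.994. Of 11 neural stem cell markers on the array, 9 passed the filter, with mean signals of 2344 for Nes, 1712 for Sox2 and 7127 for Vim. In CreER cultures 0 of these 9 rose under 4OHT and 2 fell, Pax6 (-0.40, limma adjusted p = 0.0343) and Fabp7 (-0.27, adjusted p = 0.0464). Klf2 and Klf4 are also known from endothelial cells and macrophages. Of 9 endothelial markers, 0 passed the filter. None was listed at 0, and Pecam1 lay between 0.844 and 11.4. Their summed signal was 89.1 to 137 in CreER 4OHT arrays and 107 to 161 in CreER vehicle arrays, and without Cre it was 141 to 209 under 4OHT and 149 to 188 under vehicle. Of 9 microglia and macrophage markers, 1 passed the filter (Csf1r), and their sum was 136 to 192 in CreER 4OHT arrays and 139 to 217 in CreER vehicle arrays. Without Cre that sum did not overlap, at 197 to 289.6 under 4OHT and 147 to 176 under vehicle, and its part in the results below was not tested. Of 9 astrocyte markers, 6 were tested, and in CreER cultures 2 rose under 4OHT and 1 fell. S100b rose by 1.05 (limma adjusted p = 2.84e-12) and Clu by 0.45, and Slc1a3 fell by 0.35 on the log2 scale, while Gfap stayed at 14.6 to 44.6, below the filter. The summed astrocyte signal overlapped, at 6228 to 8027 in CreER 4OHT arrays and 6674 to 8227 in CreER vehicle arrays. Of 9 neuron markers, 3 were tested, 1 rose (Syt1, 0.49) and 1 fell (Map2, -0.38), with Tubb3 below the filter. Their part in the changes described below was not tested. Whether fewer cells of a type or less RNA per cell underlies a lower signal cannot be told apart in bulk RNA.

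Members of the family share a DNA-binding domain and differ in the rest of the protein. Klf2, Klf4, Klf5, Klf6 and Klf7 are known mainly as activators, although Klf4 also represses. Klf2 holds T cells in quiescence and answers blood flow in endothelium. Klf4 is one of the reprogramming factors and restrains growth of neuronal processes, whereas Klf6 and Klf7 promote it. Klf3 represses through the corepressor CtBP, and Klf9, Klf10 and Klf13 recruit Sin3A. Klf9 is induced in brain by thyroid hormone and glucocorticoids, and Klf10 by TGF-beta.

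Klf2, Klf4 and Klf6 had higher signals under 4OHT than under vehicle in CreER cultures, and Klf10 had a lower one. Over both times 3 of the 9 tested members were higher and 1 was lower by limma at an adjusted p under 0.05, where 4.00% of all 7619 genes were higher and 8.39% lower. The members were chosen with earlier results of these data known, so their counts are descriptions. The median change of the members was 0.07 on the log2(signal + 16) scale, against -0.07 for all genes. At 60 h, 3 members were higher and 0 lower, against 2.36% and 4.66% of all genes. At 36 h, 2 were higher and 0 lower, against 1.13% and 1.51% of all genes. Scaling mattered for the balance of calls. As deposited, 32.3% of all calls over both times were higher, and after median scaling 42% and after quantile normalization 50.6% were. That normalization called 5 members higher and 1 lower, where it called 19.6% of all genes higher and 19.1% lower. At 36 h the share was 42.8% as deposited, 45.4% after quantile normalization and 24.6% after median scaling. At 60 h it was 33.6%, against 54.7% after quantile normalization and 57.9% after median scaling. At 60 h the median change of all genes was -0.11 as deposited and 0.01 after quantile normalization, and 5 members were then higher and 1 lower, where 16.2% of all genes were higher and 13.4% lower.

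**Figure D1:**
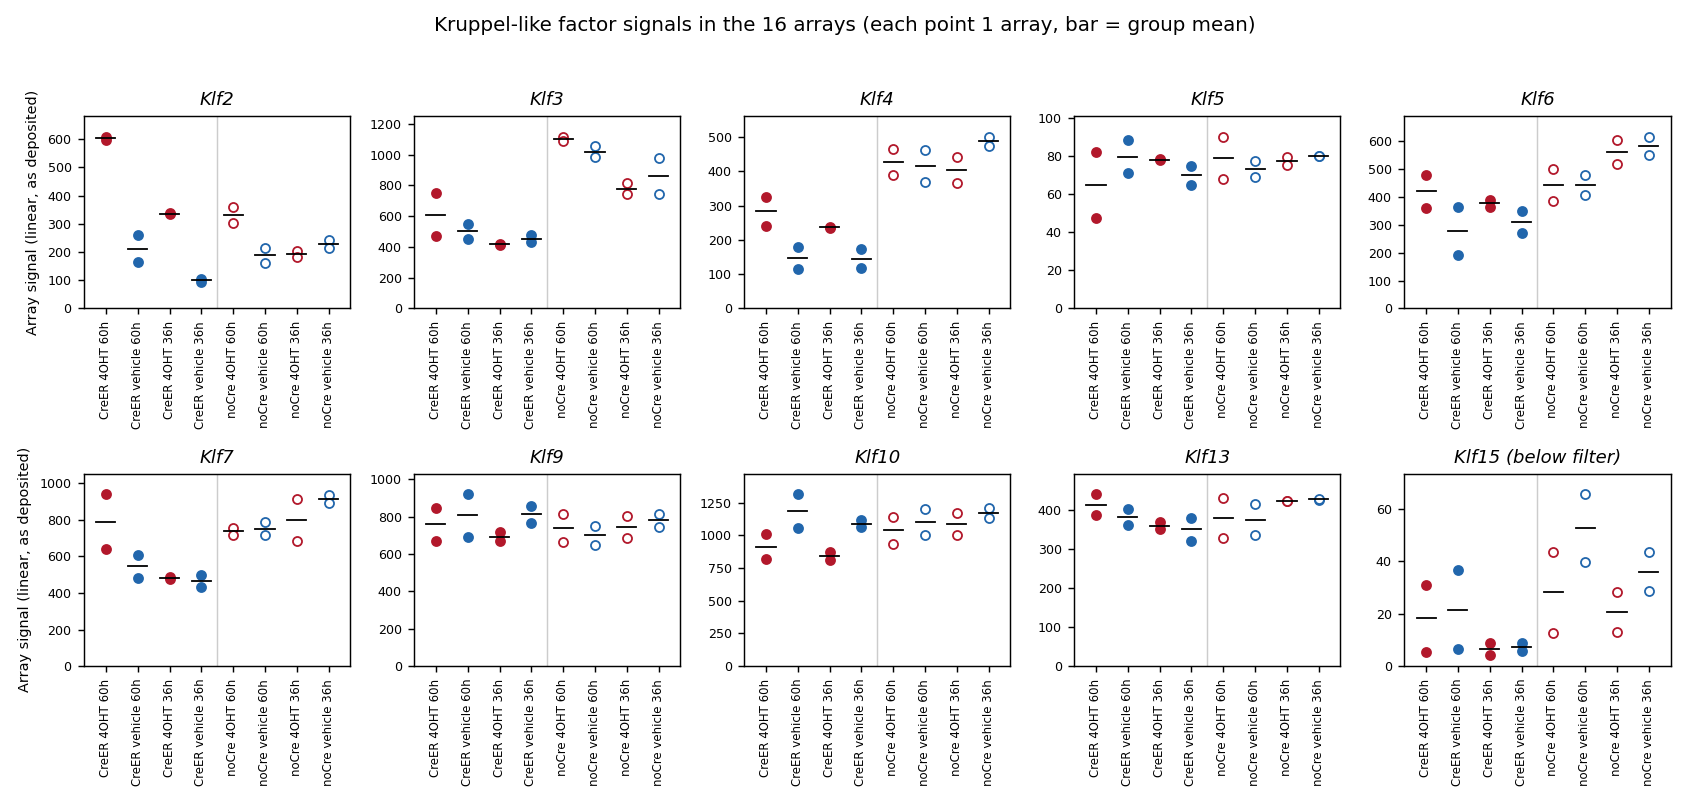
Signal as deposited (linear scale, each axis from 0) of the probe set used for each of the 10 members, by group, with 1 point per array and a bar at the group mean. Filled points are CreER and open points no Cre, red is 4OHT and blue is vehicle. For Klf2 the CreER 4OHT arrays at 60 h stand apart at 610 and 598, and the CreER vehicle arrays at 36 h are the lowest at 95.2 and 103.

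Klf2 (1448890_at, its only probe set) changed most within the family. At 60 h its signal was 610 and 598 in CreER 4OHT cultures, against 262 and 163 in CreER vehicle cultures. At 36 h it was 335 and 337 in CreER 4OHT cultures, against 95.2 and 103 in CreER vehicle cultures. All 4 of the 4OHT arrays lay above all 4 of the vehicle arrays. The mean was 469.8 ± 155 under 4OHT and 156 ± 76.8 under vehicle (SD, n = 4 each). The change was 1.54 ± 0.14 (SE) on the log2 scale, a 2.91-fold rise (limma adjusted p = 6.26e-26). It was 1.47 at 60 h (adjusted p = 2.89e-11) and 1.61 at 36 h (adjusted p = 7.33e-13). The rise over both times passed in 28 of 28 other settings, with limma adjusted p from 6.64e-30 to 2.93e-05. The response did not differ detectably between the times, at -0.14 with a 95% interval of -0.68 to 0.40 (adjusted p = 1).

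In cultures without Cre the Klf2 signal at 60 h was 359 and 304 under 4OHT, against 163 and 215 under vehicle. At 36 h it was 205 and 182 under 4OHT, against 243 and 214 under vehicle. The groups did not overlap at either time, with 4OHT above vehicle at 60 h and below it at 36 h. The rise of 0.77 at 60 h passed the threshold (limma adjusted p = 0.0426), in a comparison where 0.171% of all genes did, and Klf2 was the 1 member among them. That call was lost in 14 of 28 other settings, among them the fit of the compared arrays alone (adjusted p = 0.226). Leaving out the first no Cre vehicle array at 60 h gave 0.59 (adjusted p = 1), and leaving out the first 4OHT array there gave 0.66 (adjusted p = 0.882). The change at 36 h was -0.22 (adjusted p = 0.835). No member passed at 36 h, against 0.0131% of all genes, and none over both times, against 0.0656%. By limma 225 genes had an unadjusted p under 0.05 over both times, Klf2 among them at 0.0462.

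The CreER response of Klf2 exceeded the no Cre response by 1.27 ± 0.19 (SE) over both times (limma adjusted p = 4.13e-08). In this difference 2 of 9 members were higher, Klf2 and Klf4, and 0 lower, against 1.54% and 0.827% of all genes. The share of all calls that were higher was 65.0%, against 47.2% after quantile normalization and 35.7% after median scaling. By time, a comparison added after the data were seen, the excess was 1.84 at 36 h (adjusted p = 1.66e-07). At 60 h it was 0.70, with a 95% interval of 0.17 to 1.24, and did not pass (adjusted p = 0.27). In those comparisons 0.958% of all genes passed at 36 h and 0.984% at 60 h. The no Cre response itself was 0.99 higher at 60 h than at 36 h but did not pass (adjusted p = 0.143), where 0.0263% of all genes did.

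**Figure D2:**
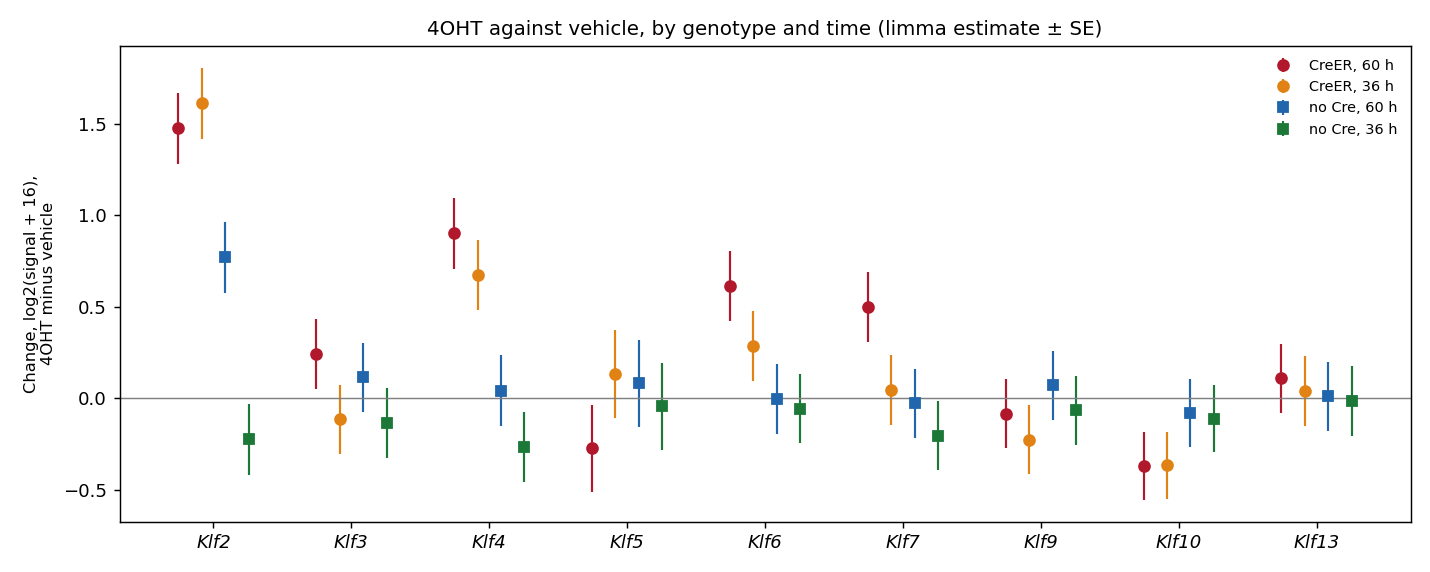
Change of each tested member under 4OHT against vehicle (limma estimate of log2(signal + 16) ± SE), by genotype and time. Klf2 and Klf4 passed the threshold in CreER cultures at both times. Klf6, Klf7 and Klf13 also lie above 0 there at both times but did not pass at both. Klf2 is the member above 0 without Cre at 60 h that passed, at 0.77.

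Klf4 (1417394_at) gave a signal of 242 and 326 in CreER 4OHT cultures at 60 h, against 179 and 114 in CreER vehicle cultures. The 36 h arrays gave 238 and 236 under 4OHT, against 117 and 173 under vehicle. Every 4OHT array exceeded every vehicle array, and the change over both times was 0.79 ± 0.14 (SE, limma adjusted p = 6.75e-07). The change was 0.90 at 60 h (adjusted p = 0.000208) and 0.67 at 36 h (adjusted p = 0.0254). Without the second CreER vehicle array at 60 h the 60 h change was 0.61 (adjusted p = 0.0602), and without the first CreER vehicle array at 36 h the 36 h change was 0.42 (adjusted p = 0.526). The 36 h call was also lost without either CreER 4OHT array of that time, at adjusted p = 0.306 and 0.23. Without Cre, Klf4 gave 467 and 389 under 4OHT at 60 h, against 369 and 463 under vehicle, and 443 and 367 under 4OHT at 36 h, against 502 and 473 under vehicle. Its change there was -0.11 (adjusted p = 1), and the CreER response exceeded it by 0.90 (adjusted p = 0.000541). The second Klf4 probe set, 1417395_at, rose by 0.53 in CreER cultures (adjusted p = 0.00395), but its excess over no Cre, 0.49, did not pass (adjusted p = 0.265).

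Klf6 (1433508_at) was 361 and 481 in CreER 4OHT cultures at 60 h, against 365 and 194 in CreER vehicle cultures. The 36 h arrays gave 364 and 391 under 4OHT, against 269 and 349 under vehicle. The groups overlapped at 60 h, where 1 vehicle array reached 365. The change over both times was 0.45 ± 0.13 (SE, limma adjusted p = 0.0111), and by time it was 0.61 at 60 h (adjusted p = 0.0233) and 0.29 at 36 h (adjusted p = 0.597). At 60 h alone it was 0.18 without the second CreER vehicle array (adjusted p = 0.588) and 0.41 without the second CreER 4OHT array (adjusted p = 0.219). The call over both times also depended on single arrays. Without the second CreER vehicle array at 60 h it was 0.23 (adjusted p = 0.256). Without the first CreER vehicle array at 36 h it was 0.36 (adjusted p = 0.101), without the second CreER 4OHT array at 60 h it was 0.35 (adjusted p = 0.0726), and without the second at 36 h it was 0.42 (adjusted p = 0.0756). Of the other Klf6 probe sets, 1427742_a_at rose by 0.48 (adjusted p = 0.0104) and 1418280_at gave 0.35 (adjusted p = 0.0925). The excess over the no Cre response, 0.48, did not pass (adjusted p = 0.217), but it did after quantile normalization (0.50, adjusted p = 0.0163) and without the first CreER vehicle array at 60 h (0.70, adjusted p = 0.0132).

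Promoter sequences of Klf2, Klf4 and Klf6 are shown because these members rose together in CreER cultures. RefSeq promoters of assembly GRCm38.p6 were matched by symbol for 8 of 10 members, all but Klf5 and Klf10. Each sequence below is the 250 bases before the annotated start, read 5′ to 3′ on the strand of the gene. Capitals mark 4 motifs on either strand: the GC box GGGCGG, the CACCC box CACCC, the CCAAT box CCAAT and the TATA box TATAAA. The Klf2 window is chr8:72318812-72319061 (+), the Klf4 window is chr4:55532476-55532725 (-) and the Klf6 window is chr13:5861239-5861488 (+).
Klf2: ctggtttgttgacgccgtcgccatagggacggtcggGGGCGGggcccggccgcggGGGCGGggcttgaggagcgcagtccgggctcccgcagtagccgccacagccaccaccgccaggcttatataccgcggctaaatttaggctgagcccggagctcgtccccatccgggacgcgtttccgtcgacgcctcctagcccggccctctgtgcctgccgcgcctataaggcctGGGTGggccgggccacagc
Klf4: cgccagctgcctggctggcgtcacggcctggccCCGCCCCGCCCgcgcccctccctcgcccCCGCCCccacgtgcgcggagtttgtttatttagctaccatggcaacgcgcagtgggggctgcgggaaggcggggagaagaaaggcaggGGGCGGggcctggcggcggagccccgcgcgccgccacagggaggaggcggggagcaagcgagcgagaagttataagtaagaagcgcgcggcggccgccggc
Klf6: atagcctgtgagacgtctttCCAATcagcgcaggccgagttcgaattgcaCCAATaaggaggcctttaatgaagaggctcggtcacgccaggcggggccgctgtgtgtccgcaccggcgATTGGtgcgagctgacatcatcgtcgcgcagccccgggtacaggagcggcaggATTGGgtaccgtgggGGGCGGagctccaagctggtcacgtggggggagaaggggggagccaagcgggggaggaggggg

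The GC content was 71.2% in the Klf2 window, 74% in the Klf4 window and 64.8% in the Klf6 window, against a median of 52.4% over 32851 promoters of the same length. Members without a call in CreER cultures had similar values, with 78.4% and 6 GC boxes for Klf3, 71.6% and 3 GC boxes for Klf13 and 72% and 1 GC box for Klf15, while Klf7 had 59.2% and Klf9 59.6%. The Klf2 window held 2 GC boxes and 1 CACCC box, both of them letters that Kruppel-like factors are known to bind. The Klf4 window held 4 GC boxes, of which the first pair share a base, and the Klf6 window held 1 GC box and 4 CCAAT boxes. A GC box occurred in 32.7% of all promoters, a CACCC box in 52%, a CCAAT box in 33.8% and a TATA box in 12.4%. The letters TGACG, the core of the cAMP response element, occurred in Klf2 and Klf4 (1 each) and in 17.8% of all promoters. Of members without a call, Klf9 and Klf13 held 1 each, Klf15 held 2, and Klf3 and Klf7 held 0. CACCC boxes numbered 5 in Klf3, 3 in Klf7 and 1 each in Klf9, Klf13 and Klf15. CCAAT boxes numbered 3 in Klf9, 2 in Klf13, 1 in Klf15 and 0 in Klf3 and Klf7. The FOXO site TGTTTAC and the TATA box were not found in the Klf2, Klf4 or Klf6 window. These matches describe the letters and say nothing about binding.

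Klf7 (1449439_at) was 638 and 941 in CreER 4OHT cultures at 60 h, against 610 and 485 in CreER vehicle cultures. In 36 h arrays it was 487 and 475 under 4OHT, against 434 and 499.5 under vehicle. The 60 h groups did not overlap and the 36 h groups did. The change over both times, 0.27, did not pass (limma adjusted p = 0.176), and neither did the 0.50 at 60 h (adjusted p = 0.0874). After quantile normalization Klf7 passed over both times, at 0.36 (adjusted p = 0.000713), and it also passed when the first CreER 4OHT array at 60 h was left out, at 0.41 (adjusted p = 0.0431). Klf5 (1451021_a_at), a growth-promoting factor of epithelia, lay between 47.5 and 90.3 in all arrays, close to the filter. Its change in CreER cultures was -0.07, with a 95% interval of -0.40 to 0.26.

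Klf10 (1416029_at) was the member that fell. Its signal was 819.5 and 1007 in CreER 4OHT cultures at 60 h, against 1315 and 1057 in CreER vehicle cultures. At 36 h it was 813 and 873 under 4OHT, against 1065 and 1115 under vehicle. Every 4OHT array lay below every vehicle array, with means of 878 ± 90.1 under 4OHT and 1138 ± 121 under vehicle (SD, n = 4 each), and the change was -0.37 ± 0.13 (SE, limma adjusted p = 0.0417). The call passed in 12 of 28 other settings, with adjusted p from 0.000191 after quantile normalization to 0.185. It was lost without either CreER 4OHT array at 36 h, either CreER vehicle array at 36 h, the first CreER 4OHT or the first CreER vehicle array at 60 h (-0.29 to -0.39, adjusted p = 0.0694 to 0.185), and, with the value unchanged at -0.37, without 6 of the no Cre arrays (adjusted p = 0.0508 to 0.065). The excess over the no Cre response, -0.27, did not pass (adjusted p = 0.679), but it did after quantile normalization (-0.24, adjusted p = 0.0156) and median scaling (-0.31, adjusted p = 0.0242).

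Klf3 (1429360_at) gave 468 and 751 in CreER 4OHT cultures at 60 h, against 550 and 453 in CreER vehicle cultures, and 414 and 422 under 4OHT at 36 h, against 430 and 480 under vehicle. Its change was 0.06, with a 95% interval of -0.20 to 0.33. Klf9 (1456341_a_at) gave -0.16 (-0.42 to 0.11) and Klf13 (1436316_at), a regulator of chemokine genes in T cells, 0.07 (-0.19 to 0.34). None of the 3 passed. Klf15 (1448181_at), a metabolic factor induced by glucocorticoids, lay between 4.42 and 65.8 and below the filter.

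No member changed its 4OHT response in CreER cultures between 60 h and 36 h past the threshold, where 0.197% of all genes did. Klf7 came nearest, with a response 0.45 larger at 60 h (unadjusted p = 0.0897, limma adjusted p = 1), and it passed after quantile normalization at 0.54 (adjusted p = 0.048). By limma 325 of all genes had an unadjusted p under 0.05 here, and 46.7% of all calls were higher as deposited, 66.7% after quantile normalization and 90.7% after median scaling.

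The genotypes differed in the family without 4OHT, and markers of cell types differed with them. Under vehicle, 5 of 9 members were lower in CreER than in no Cre cultures and 0 were higher, against 26.6% and 8.01% of all genes. The members' median was -0.47 and that of all genes -0.13. Of 6 tested astrocyte markers 3 were higher and 3 lower in CreER, with Clu at 2.04, Gja1 at -4.15 and S100b at -1.48. Of 3 neuron markers 1 was higher (Gap43, 1.75) and 2 lower, among them Syt1 at -1.92, and of 9 stem cell markers 1 was higher and 4 lower, among them Sox9 at -1.13. The part of these markers in the members' differences was not tested. Klf4 averaged 146 ± 35.2 in CreER and 452 ± 57.8 in no Cre cultures (SD, n = 4 each), a difference of -1.55 ± 0.14 (SE, limma adjusted p = 1.76e-28). Klf3 averaged 478 ± 51.9 in CreER and 941 ± 134 in no Cre cultures (-0.95, adjusted p = 3.03e-11). Klf6 differed by -0.79 (adjusted p = 4.84e-08), Klf7 by -0.70 (adjusted p = 1.76e-06) and Klf2 by -0.47 (adjusted p = 0.00276). For Klf2 the direction of the means differed by time, with 212 in CreER and 189 in no Cre cultures at 60 h, where the arrays overlapped, and 99.3 in CreER and 229 in no Cre cultures at 36 h. The genotypes were not tested at each time. For Klf3, Klf4, Klf6 and Klf7 the CreER mean was the lower at both times. The arrays of the 2 genotypes did not overlap for Klf3, Klf4, Klf6 or Klf7. The share of all genes without such overlap was not counted. The Klf2 call was lost without the second CreER vehicle array at 60 h (-0.32, adjusted p = 0.0909), without the second no Cre vehicle array at 60 h (-0.38, adjusted p = 0.0547) and with the actin ratio of each array, a measure of RNA quality, entered as a covariate (-0.38, adjusted p = 0.154). With that covariate the Klf7 difference was -0.36 and did not pass either (adjusted p = 0.142).

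Other probe sets were lower in CreER as well for Klf4 (-1.19, limma adjusted p = 1.78e-15) and Klf6 (-0.76 and -0.57, adjusted p = 1.19e-06 and 0.000307). For Klf3, 1421604_a_at gave -0.64 (adjusted p = 3.39e-05) and 1431630_a_at -0.12 (adjusted p = 0.52). For Klf7 the other 3 probe sets gave -0.04, -0.25 and -0.38, of which the last passed (adjusted p = 0.0254). Klf13 did not differ by the probe set used (-0.13, adjusted p = 0.502), but 1432543_a_at differed by -0.53 (adjusted p = 0.00124). Scaling shifted the balance here too. As deposited, 23.1% of all calls were higher in CreER, and after quantile normalization 52.8% and after median scaling 55.1% were. The same 5 members stayed lower after quantile normalization, and Klf9 (0.29, adjusted p = 2.6e-05) and Klf10 (0.15, adjusted p = 0.00834) were then higher in CreER. In that setting 29.2% of all genes were higher and 26.1% lower.

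Under 4OHT Klf2 was the higher in CreER. Klf2 averaged 469.8 ± 155 in CreER and 262 ± 83.2 in no Cre cultures (SD, n = 4 each), 0.80 ± 0.14 higher in CreER (SE, limma adjusted p = 9.57e-08). It was the 1 member higher, against 8.58% of all genes. Lower in CreER were 4 members, against 30.0% of all genes. Klf4 differed by -0.65 (adjusted p = 1.3e-05), against -1.55 under vehicle, and Klf3 by -0.87 (adjusted p = 1.24e-09). Klf6 and Klf7 each differed by -0.31 (adjusted p = 0.0498 and 0.0484), calls that held in 7 of 28 and 10 of 28 other settings. Klf7 averaged 789.7 in CreER and 738 in no Cre cultures at 60 h, and 481 in CreER and 799.5 in no Cre cultures at 36 h, so the lower CreER mean was found at 36 h. The Klf6 mean was the lower in CreER at both times, at 421 against 444 in no Cre cultures at 60 h and 377 against 562 at 36 h. After quantile normalization neither passed, and Klf9 (0.15, adjusted p = 0.00555) and Klf13 (0.16, adjusted p = 0.0359) were higher in CreER. In that setting 27.7% of all genes were higher and 28.3% lower. The share of all calls that were higher was 22.3% as deposited, 49.5% after quantile normalization and 44.6% after median scaling.

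**Figure D3:**
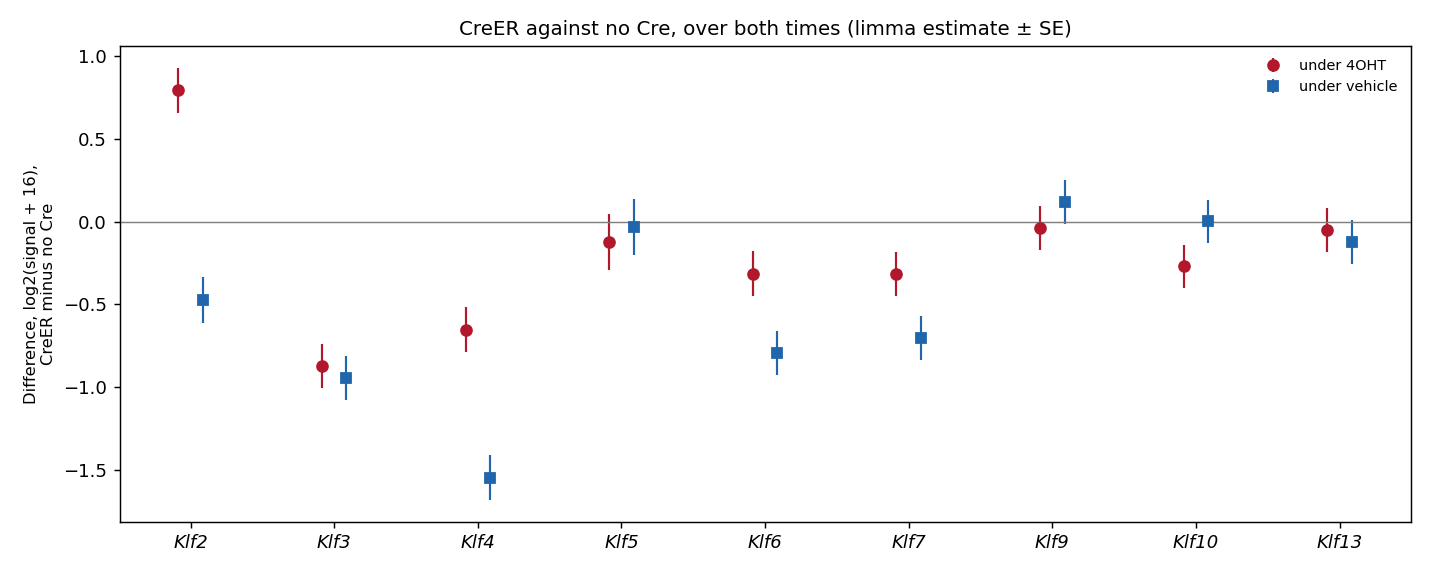
Difference between CreER and no Cre cultures for each tested member over both times (limma estimate of log2(signal + 16) ± SE), under 4OHT (red circles) and vehicle (blue squares). Klf2 lies at 0.80 under 4OHT and at -0.47 under vehicle. Klf3 lies near the same value in both, -0.87 and -0.95.

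Klf2 and Klf7 were higher at 60 h than at 36 h in CreER cultures, 2 of 9 members, where 5.30% of all genes changed. Klf2 was higher by 0.88 ± 0.14 (SE, limma adjusted p = 4.5e-08) and Klf7 by 0.44 ± 0.13 (adjusted p = 0.022). The Klf7 difference was 0.57 and 0.49 in 1419354_at and 1419355_at (adjusted p = 0.00211 and 0.0158) and 0.39 in 1419356_at (adjusted p = 0.108). Leaving out the second CreER 4OHT array at 60 h gave 0.31 for Klf7 (adjusted p = 0.186), and the call was also lost without the first CreER vehicle array at either time or either CreER 4OHT array at 36 h (adjusted p = 0.0864 to 0.137). Without Cre, 0 members passed by the probe set used, against 4.13% of all genes. By limma 1640 genes had an unadjusted p under 0.05 there, with Klf3 and Klf6 among them (0.37 and -0.36). The share of all calls that were higher at 60 h was 32.4% in CreER as deposited, 49.2% after quantile normalization and 25.6% after median scaling. Without Cre it was 61.3% as deposited, 45.2% with quantile normalization and 14.2% with median scaling. The difference between the times in CreER minus that without Cre was 0.65 for Klf2 (0.88 and 0.23, adjusted p = 0.0398) and 0.63 for Klf7 (0.44 and -0.19, adjusted p = 0.043), in a comparison added after the data were seen in which 2.23% of all genes passed. The no Cre value of Klf2 averages opposite directions. Its mean there went from 193 at 36 h to 331 at 60 h under 4OHT, and from 229 to 189 under vehicle. In CreER cultures the Klf2 mean rose from 336 to 604 under 4OHT and from 99.3 to 212 under vehicle.

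Probe sets of the same gene went apart with time in no Cre cultures. Klf9 1436952_at was 171 and 163 in no Cre 4OHT and 176 and 157 in no Cre vehicle cultures at 60 h, against 42.8 and 51.3 under 4OHT and 61.2 and 83.2 under vehicle at 36 h. The groups did not overlap, and the difference was 1.30 ± 0.16 (SE, limma adjusted p = 3.31e-14). The 4 other tested Klf9 probe sets gave -0.13 to 0.24 and did not pass. For Klf3, 1431630_a_at differed by 0.76 (adjusted p = 1.81e-06) and 1421604_a_at by 0.48 (adjusted p = 0.00921), beside 0.37 for the one used (adjusted p = 0.0909). For Klf13, 1432543_a_at gave 0.55 (adjusted p = 0.00287), beside -0.18 for the one used. For Klf6, 1418280_at gave -0.46 (adjusted p = 0.0179) and 1427742_a_at 0.35 (adjusted p = 0.107).

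Measures of RNA quality differed between the same times in no Cre cultures, so time and RNA quality cannot be told apart there. The ratio of 5′ to 3′ actin signal, which falls as RNA or labelled product shortens, averaged 0.825 ± 0.0548 in no Cre 60 h cultures and 0.614 ± 0.0534 in no Cre 36 h cultures (SD, n = 4 each), with no overlap. For Gapdh, no Cre cultures had 1.23 ± 0.0262 at 60 h and 0.975 ± 0.125 at 36 h. In CreER cultures 60 h arrays had an actin ratio of 0.826 ± 0.0729 and 36 h arrays 0.776 ± 0.0454, and there Klf9 1436952_at differed by 0.07 between the times. That 0.07 averages opposite directions, with means of 110.5 at 60 h and 146 at 36 h under 4OHT, and 153 and 101 under vehicle. When the actin ratio was a covariate, the no Cre time differences were 1.06 ± 0.37 (SE) for Klf9 1436952_at, 0.32 ± 0.30 for Klf3 1431630_a_at, 0.76 ± 0.32 for Klf13 1432543_a_at and 0.58 ± 0.32 for Klf6 1418280_at. None of these passed (adjusted p = 0.297 to 0.617), and each SE was larger than without the covariate, 0.37 against 0.16 for Klf9 1436952_at. The difference of Klf6 1418280_at was negative without the covariate and positive with it, and that of Klf13 1432543_a_at was larger with it. RNA quality as a cause was not tested.

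**Figure D4:**
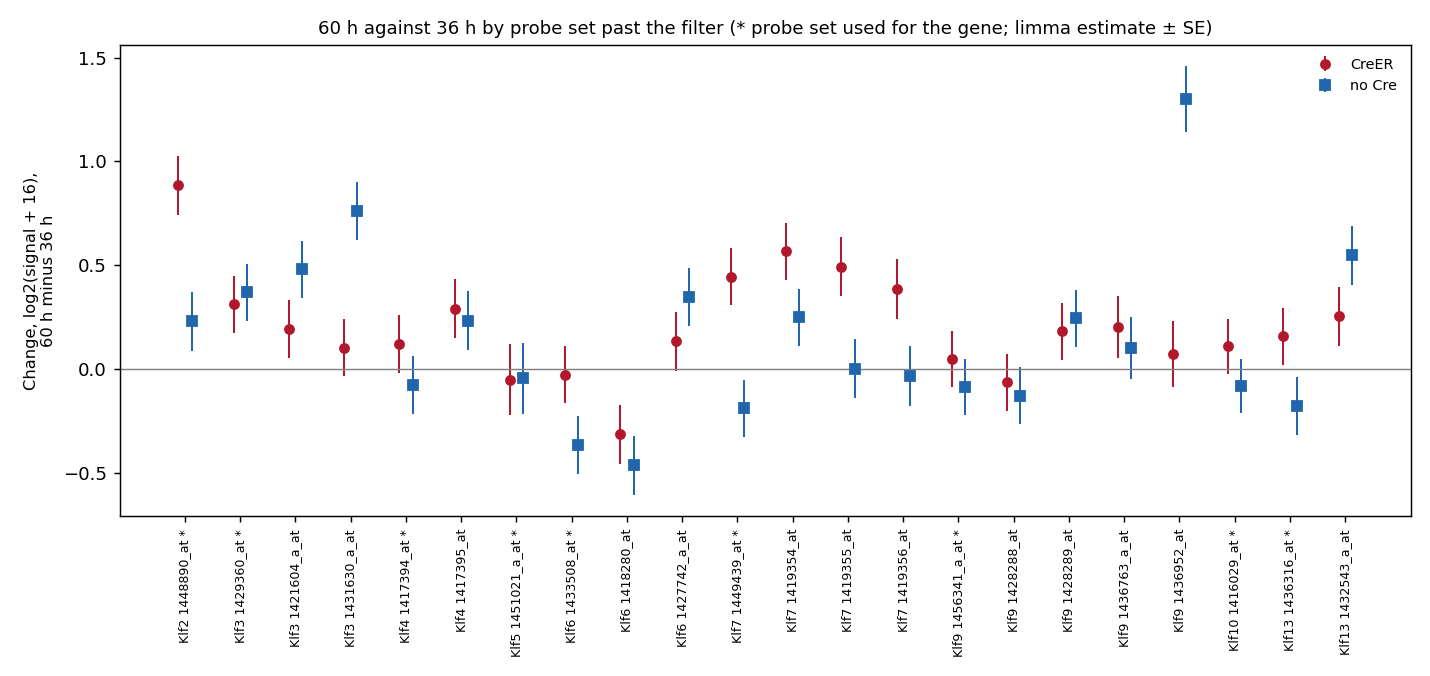
Difference between 60 h and 36 h for every member probe set past the filter (limma estimate of log2(signal + 16) ± SE), in CreER (red circles) and no Cre cultures (blue squares), with the probe set used for each gene marked by an asterisk. Klf9 1436952_at stands out at 1.30 without Cre and lies at 0.07 in CreER, while the other Klf9 probe sets lie between -0.13 and 0.24. The 0.07 averages a lower mean at 60 h under 4OHT and a higher one under vehicle.

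Genes known to act upstream of Klf2 and Klf4 were mostly without a call. Over both times in CreER cultures 4.00% of all genes were higher and 8.39% lower under 4OHT, with a median of -0.07, and the list counts that follow are to be read against these shares. The lists, too, were chosen with earlier results of these data known. Of 10 tested members of the list of ERK5, MEF2 and FOXO inputs, 1 was higher and 1 lower under 4OHT in CreER cultures over both times, with a list median of -0.01. Foxo3, a transcription factor that holds adult neural stem cells in quiescence, averaged 912 ± 178 under 4OHT and 477 ± 120 under vehicle (SD, n = 4 each), a rise of 0.93 (limma adjusted p = 8.84e-10). Foxo1 fell by 0.41 on the log2 scale (adjusted p = 0.0371). Mapk7, which encodes ERK5, and Map2k5, its kinase, gave -0.04 and 0.02 and did not pass. Between genotypes under vehicle, 5 of the 10 were lower in CreER and 0 higher, where 26.6% of all genes were lower and 8.01% higher. Among them were Mef2a (-1.25, adjusted p = 2.65e-19) and Mef2c (-1.12, adjusted p = 2.22e-15).

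Of the hormone responses tied to Klf9, 2 of 10 genes rose and 2 fell in CreER cultures under 4OHT, with a median of 0.16. Dusp1, a phosphatase that switches off MAP kinases, rose by 0.91 (limma adjusted p = 1.97e-09) and Thra, a thyroid hormone receptor, by 0.50 (adjusted p = 0.00247). Fkbp5, a chaperone of the glucocorticoid receptor, fell by 0.55 on the log2 scale (adjusted p = 0.001) and Mt2, a metallothionein, fell by 0.39 (adjusted p = 0.027). Of 7 TGF-beta response genes, the setting in which Klf10 was described, 0 rose and 1 fell, Skil, a repressor of Smad proteins, at -0.44 (adjusted p = 0.0151), with a median of -0.13. Of 12 corepressors and coactivators bound by the family, 0 rose and 2 fell, with a median of -0.19. These were Wwp1, a ubiquitin ligase that acts on Klf2 and Klf5 (-0.43, adjusted p = 0.019), and Sap30, a subunit of the Sin3 complex (-0.39, adjusted p = 0.0276). Ctbp1 and Sin3a gave -0.06 and -0.29 and did not pass.

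Of 4 tested relatives outside the 10 members, Klf12, Klf16, Sp1 and Sp3, 0 passed under 4OHT in CreER cultures over both times, with values of -0.37, -0.12, -0.26 and -0.13. Sp1 was higher in CreER than in no Cre cultures under vehicle, by 0.84 (limma adjusted p = 4.88e-09). Of 12 genes reported as targets of Kruppel-like factors, 2 rose and 1 fell, with a median of 0.10. The cyclin-dependent kinase inhibitors Cdkn1a and Cdkn2b rose by 0.97 (adjusted p = 2.04e-13) and 0.52 (adjusted p = 0.00347), and Ccne1, a cyclin of S-phase entry, fell by 0.54 on the log2 scale (adjusted p = 0.00389). Of 17 quiescence and cell cycle genes, which share Cdkn1a, Cdkn1b, Ccnd1, Ccne1 and Foxo3 with the other lists, 2 rose and 6 fell over both times, against 4.00% and 8.39% of all genes, with a median of -0.13. Mki67 and Mcm2, genes of proliferating cells, fell by 0.81 (adjusted p = 6.86e-09) and 0.73 (adjusted p = 2.66e-07). Endothelial genes regulated by Klf2 elsewhere, Nos3 and S1pr1, gave 0.05 and 0.08 and did not pass.

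The members did not share 1 pattern over the 8 group means. Klf4 and Klf6 ran together (r = 0.93 over 8 group means of log2 signal), as did Klf4 with Klf7 (0.87) and with Klf3 (0.86). All of them were lower in CreER than in no Cre cultures under vehicle, by the probe sets used. Klf2 ran with none of these closely, at r = 0.29 with Klf4 and 0.21 with Klf6, and opposite to Klf10 at -0.65. After quantile normalization Klf4 with Klf6 gave 0.90 and Klf2 with Klf10 -0.42. The group means share arrays and brightness, so these values are descriptions. Outside the family the 8 tested genes closest to Klf2 were Olfm1 (0.98), Ypel3 (0.98), Dcaf4 (0.97), Ptprv (0.97), Cdh13 (0.96), Pqlc3 (0.95), Gabarapl1 (0.94) and H1f2 (0.93). Olfm1, a secreted glycoprotein of neurons, differed by 0.99 in CreER cultures under 4OHT and by 0.51 in no Cre cultures at 60 h, and Cdh13, a cadherin without a transmembrane part, by 0.98 and 0.44. The 8 closest to Klf9 were Sub1 (0.93), Ttpa (0.89), Fam117b (0.89), Fastkd5 (0.87), Nt5dc3 (0.86), Ahi1 (0.86), Helb (0.86) and Lclat1 (0.85), and after quantile normalization these ran from 0.45 to 0.95.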

How the data were processed

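RNA of 16 cultures was hybridised to Affymetrix arrays after TRIzol extraction and biotin labelling, per the labels' protocols. The deposited values are 1-colour signal intensities on a linear scale, produced by the authors with MAS5, per the submitters' processing notes. Its version and scaling target were not given in the sources used here. The intensities were used as deposited, since array medians differed at most 1.44-fold, within the 1.5-fold allowed.

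Of 22626 probe sets other than controls, 20380 had 1 gene symbol, 691 several and 1555 none. Symbols were looked up in RefSeq by Entrez ID, which matched 20351 and changed 0. One fit of 8 group means in limma 3.58.1 (R 4.3.3), on log2(signal + 16) with 8 residual degrees of freedom and a mean-variance trend, gave every contrast, two-sided and Benjamini-Hochberg adjusted over 7619 genes. In this fit limma gave the trend all the weight (infinite prior degrees of freedom). Each SE and p-value therefore rests on the spread typical of genes of similar signal, not on the gene's own replicate spread. Other probe sets of the members were taken from a second fit of all probe sets past the filter. All p-values described as adjusted are from limma, and a call is an adjusted p under 0.05. The 2 arrays per group limit the precision.

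Alternatives were quantile and median scaling, pseudocounts of 1 and 64, no filter or the 60th percentile, no trend, the second brightest probe set, another rule for the probe set, a replicate block, the actin ratio, only the arrays compared, and each array left out. Beyond the members, up to 4 genes past the threshold were named from each list by smallest p, and the 8 genes most correlated with Klf2 and with Klf9. Unchanged upstream, corepressor and target genes were named after their values were seen. The members and lists were chosen with earlier results of these data known. In simulated data of the same 7619 genes for the CreER contrast over both times, calls were made for 56 of 67 genes given a 1.5-fold change, 65 of 67 given a 2-fold and 66 of 66 given a 3-fold change. The fit made 9 false calls there. Noise was drawn independently for each gene and array, with no brightness shift between arrays and no other group difference. These counts therefore do not cover such effects in the real arrays.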

Additional observations from a re-analysis of the deposited data

Results flagged for a closer look

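The response of Klf2 to 4OHT differed between the genotypes by test, at 1.27 on the log2 scale more in CreER than in no Cre cultures (limma adjusted p = 4.13e-08). It passed in 28 of 28 other settings, between 1.06 and 1.43. The response of Klf4 differed by 0.90 (limma adjusted p = 0.000541) and passed in 26 of 29. With no filter on dim genes its adjusted p was 0.0966, and the second probe set gave 0.49 (adjusted p = 0.265). Causes were not tested.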

How the results depend on the processing

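The count of members past the threshold moved with the setting, and the cause was not tested. Over both times in CreER cultures it was 4, and 2 with no filter. At 36 h it was 2, 4 after quantile normalization or median scaling, and 1 with no filter or the second brightest probe set. At 60 h it was 3, 6 after quantile normalization, 5 after median scaling and 1 with only the arrays compared. For the difference of responses it was 2, 5 after either scaling, and 1 with no filter or the second probe set. Counts over all genes were larger after scaling too. The share called in that difference was 2.36% as deposited, 19.2% after quantile normalization and 15.6% after median scaling. In the same order it was 2.64%, 21.4% and 19.2% for the CreER response at 36 h, and 7.02%, 29.7% and 23.5% at 60 h. For time in culture it was 5.3%, 22.8% and 21.7% in CreER, and 4.13%, 27.2% and 46.2% without Cre. Between genotypes under 4OHT it was 38.6% as deposited and 52.8% after median scaling. Shares under the other settings were not counted. For the difference between the times the member count was 0, and 1 after quantile normalization, where 2.21% of all genes were called. CreER against no Cre under vehicle gave 5, and 3 with the actin ratio. Under 4OHT it gave 5, and 3 after median scaling, with no filter, no trend, the actin ratio, the second probe set, only the arrays compared or the replicate block. For 60 h against 36 h it was 2 in CreER, 5 after quantile normalization, and 1 with no filter or only the arrays compared. Without Cre it was 0, then 2 after quantile normalization, 4 after median scaling, and 2 with the second probe set or only the arrays compared. Leaving out each array gave 2 to 4 over both times, 1 to 2 at 36 h, 1 to 4 at 60 h, 2 to 3 for the difference of responses, 4 to 5 between genotypes under vehicle, 3 to 6 under 4OHT, 1 to 3 for time in CreER and 0 to 1 without Cre. The Klf2 rise lay between 1.38 and 1.70 with an array left out.

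Reversed were Klf7 between genotypes under 4OHT with the second probe set (0.16), Klf9 (0.15) and Klf13 (0.16) there after quantile normalization, and Klf13 with time without Cre by its second probe set (0.55). Over every member, comparison and setting, arrays left out included, 2862 values kept direction and side of the threshold, 99 lost and 47 gained a call. A sign change without a call in either setting counts as kept.

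Replicate numbers were not treated as pairs. In departures from the group means, same-numbered arrays of 28 pairs of groups correlated at -0.13 to 0.31, with 5 over 0.1. With 2 arrays per group these values cannot exclude that some groups share a batch. The replicate block lost the Klf10 call over both times (adjusted p = 0.0663). The 2 arrays per group limit all members, and low signal limits Klf5, near the filter, and Klf15, below it.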

Other observations

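Klf9 1436952_at, the probe set that moved with time in no Cre cultures, also differed between genotypes under 4OHT (0.41, limma adjusted p = 0.0286), while the probe set used for Klf9 differed by -0.04. The direction of the means differed by time, at 110.5 in CreER and 167 in no Cre cultures at 60 h, and 146 in CreER and 47.0 in no Cre cultures at 36 h, the no Cre arrays with the low actin ratio. With that ratio as a covariate the difference between genotypes was 0.34 ± 0.18 (SE) and did not pass (limma adjusted p = 0.146).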
